A study of Mus musculus with 1087 samples.

Results

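The cells described here are 85 of the 1087 single cells of the series, all of them from E11.5 (embryonic day) and all in the class that the labels call U1. They are the 15 cells of cluster 6 and the 70 cells of cluster 5 in the authors' clustering made without CD27+ cells, and every such cell was taken. All embryos carried 1 allele of Gata2 linked to the Venus fluorescent protein. They came from wild-type C57BL/6HsdJOla mothers and Gata2V/V fathers. Cells of the aorta-gonad-mesonephros region (AGM, where the first hematopoietic stem cells form) were stained for CD31, cKit and CD27, and the titles call all of them high for Kit. Of the cluster 6 cells, 12 came from the gate with low Venus (G2VLo) and 3 from the gate with intermediate Venus (G2VInt). Of the cluster 5 cells, 65 were G2VLo and 5 were G2VInt. Embryo, litter and sort of a cell are not given in the sources used here. Each gate is therefore 1 sample, and its cells are not replicates of a condition. The clusters were made from the same expression values that are compared below, so every difference between them is a description and carries no test.

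Macrophages of the embryo arise from yolk sac and fetal liver progenitors, depend on the receptor Csf1r, and clear dying cells and expelled red cell nuclei. In the adult, distinct sets of genes mark the macrophages of single organs. Timd4, Marco, Spic, Fcna, Nr1h3, Hmox1 and Slc40a1 are known from macrophages of liver and spleen, which break down aged red cells and return their iron. Cx3cr1, Tmem119, Siglech, Olfml3, Gpr34 and Fcrls are known from microglia, the macrophages of the brain, several of them also from other early macrophages.

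Cluster 6 cells held from 302795 to 3223457 reads on genes (median 489167), and cluster 5 cells from 152492 to 2904760 (median 498507). The G2VInt cells were read more deeply (1583275 to 3223457 reads in cluster 6), so the 3 of them supply 59.04% of all cluster 6 reads, and the 5 of cluster 5 supply 22.7% of its reads. After thinning each cell to 100000 reads, a median of 6755 genes had a read in cluster 6 and 6428 in cluster 5. Mitochondrial genes took a median of 6.59% and 6.76% of the reads. One cluster 6 cell stands apart. The G2VInt cell RBG8234 (cells carry their library names from the titles) had the most genes after thinning (8491) and was the only cluster 6 cell rich in Kit (489 CPM, reads scaled to a total of 1000000) and Gata2 (111.1 CPM), and results that rest on it are given with and without it. Reads of Y-linked genes or of Xist, but never both (0 cells), passed 10 reads in 14 of 15 and 68 of 70 cells: 4 and 41 with Y-linked genes, 10 and 27 with Xist, so each cluster holds cells of at least 1 male and 1 female embryo.

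Cluster 6 was 17.6% of the U1 cells (15 of 85, exact 95% interval 10.2 to 27.4, counting error only). It was 15.6% of those in G2VLo (12 of 77, 8.32 to 25.6) and 37.5% in G2VInt (3 of 8, 8.52 to 75.5), and these intervals overlap. As a share of all E11.5 cells of the gate, cluster 6 was 2.54% of G2VLo (12 cells, 1.32 to 4.40) and 1.08% of G2VInt (3 cells, 0.222 to 3.11). Cluster 5 was 13.8% of G2VLo (65 cells, 10.8 to 17.2) and 1.79% of G2VInt (5 cells, 0.584 to 4.13). Library names of the gates fall into separate number ranges, so a gate and the libraries made together with it cannot be told apart.

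Levels below are CPM of the reads summed over a cluster, with exact Poisson 95% intervals that cover counting error only, or CPM of single cells. A gene counts as measured with at least 10 CPM in 1 cluster and a read in at least 20% of that cluster's cells at 100000 reads, and as higher or lower at a 2-fold ratio of summed CPM. Of 9084 measured genes, 883 (9.72%) were at least 2-fold higher in cluster 6 and 868 (9.56%) at least 2-fold lower. Over all measured genes the median log2 ratio was 0.08. TMM scaling would move every ratio by -0.10 on the log2 scale and the split to 740 higher and 1027 lower.

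The reporter gene and the sorted proteins were low in both clusters at the RNA level. Kit, the stem cell factor receptor, had 1.81 CPM in cluster 5 (1.44 to 2.25) although the titles call every cell Kit-high, and single cells ranged from 0 to 20.1 CPM. In cluster 6 the sum gave 106.8 CPM, of which cell RBG8234 supplied nearly all reads: without it, cluster 6 had 1.99 CPM, 1.10 times the level of cluster 5. Gata2 also came mostly from that cell, with 24.6 CPM in cluster 6, 0.895 without the cell, and 0.287 in cluster 5. The reads left were few, from cells RBG8246, RBG8255 and RBG19615, none above 2.94 CPM. In G2VLo the log2 ratio of Gata2 was -0.58. Cd27 had 7.81 CPM in cluster 6, 0.298 without cell RBG8234, and 0.552 in cluster 5. Pecam1, which encodes CD31, had 71.4 CPM in cluster 6 (66.8 to 76.1) and 74.2 in cluster 5 (71.7 to 76.8), and 48.4 without cell RBG8234. Hematopoietic cells of class HC1 in the same gates had 555 CPM of Kit in G2VLo and 650 in G2VInt.

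The 4 marker genes of cluster 6 lie on 4 chromosomes, and their promoter windows are shown because these genes set the name of the comparison. Timd4 and Fcna were read in all 15 cluster 6 cells, whereas Marco and Spic shared 3 cells. Each line gives the bases just before the RefSeq start of the gene on the gene's strand (GRCm38.p6). The windows are chr11:46810549-46810798 on the plus strand for Timd4, and chr1:120505025-120505274, chr10:88683024-88683273 and chr2:25627975-25628224 on the minus strand for Marco, Spic and Fcna. The gene spans given below come from another annotation, whose starts can differ. The Spic window lies inside the Spic span, and the Fcna window overlaps the Fcna span. Motif counts hold for these windows only. Capitals mark GAGGAA, the core of the PU-box bound by ETS factors such as PU.1, searched on both strands.
Timd4: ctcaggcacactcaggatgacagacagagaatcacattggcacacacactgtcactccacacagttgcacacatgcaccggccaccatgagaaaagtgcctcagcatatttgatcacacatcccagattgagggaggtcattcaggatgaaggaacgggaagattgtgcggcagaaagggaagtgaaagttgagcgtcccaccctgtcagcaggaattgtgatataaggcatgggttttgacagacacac
Marco: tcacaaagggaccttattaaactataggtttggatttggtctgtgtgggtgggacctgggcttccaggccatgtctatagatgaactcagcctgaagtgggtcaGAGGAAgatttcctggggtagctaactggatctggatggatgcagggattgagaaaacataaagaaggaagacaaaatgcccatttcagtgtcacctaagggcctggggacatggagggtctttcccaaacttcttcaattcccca
Spic: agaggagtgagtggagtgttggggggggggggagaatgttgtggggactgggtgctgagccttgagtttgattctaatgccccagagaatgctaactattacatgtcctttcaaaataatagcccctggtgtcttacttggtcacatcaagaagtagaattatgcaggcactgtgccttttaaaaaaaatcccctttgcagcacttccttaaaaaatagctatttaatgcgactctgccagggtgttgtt
Fcna: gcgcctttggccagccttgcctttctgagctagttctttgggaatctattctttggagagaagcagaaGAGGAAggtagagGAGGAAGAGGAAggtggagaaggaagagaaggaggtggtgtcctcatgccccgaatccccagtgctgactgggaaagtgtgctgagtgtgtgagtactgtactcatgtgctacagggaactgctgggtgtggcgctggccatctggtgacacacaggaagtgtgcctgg
The Marco window held 1 match and the Fcna window 3, of which 2 adjoin. The Timd4 and Spic windows held 0. Of 32851 RefSeq windows of this length, 7639 (23.3%) held the motif at least once. The AP-1 motif TGACTCA, also searched on both strands, was in 0 of these 4 windows and in 4.46% of all windows. Among the 15 genes with the highest ratios, 14 had a window and 2 of them held the PU-box core. Among the 15 lowest, 13 had a window and 5 held it.

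Timd4 encodes a receptor for phosphatidylserine, the lipid that dying cells expose (ENSMUSG00000055546, chromosome 11, 46810800 to 46844332, plus strand). It was read in all 15 cluster 6 cells. In the 12 G2VLo cells it ranged from 36.4 to 552 CPM (median 262.7), and the 3 G2VInt cells had 106.4, 542 and 552 CPM. In cluster 5 it was read in 22 of 70 cells, with a highest value of 257.7 CPM, and in none of the 5 G2VInt cells (0). The highest cluster 5 cells therefore overlap the lower cluster 6 cells. Summed over cells the levels were 339.3 CPM (329.3 to 349.6) and 19.7 CPM (18.4 to 21.01), a 17.2-fold difference (16.04 to 18.6).

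Fcna, the secreted lectin ficolin A of the complement system (ENSMUSG00000026938, chromosome 2, 25624666 to 25628030, minus strand), was the most abundant of the 4. All 15 cluster 6 cells had at least 509.7 CPM. Their median was 932 CPM in G2VLo (highest 3798), and the G2VInt cells had 990, 2804 and 3656. Of the cluster 5 cells, 48 had a read, with a median of 31.5 CPM in G2VLo (0 to 2123) and 122.8 in G2VInt (31.99 to 341.7). In G2VInt the clusters did not overlap, and in G2VLo they did. The summed levels were 1884 CPM (1860 to 1908) and 158.02 CPM (154.4 to 161.7), an 11.9-fold difference.

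Marco and Spic were each read in fewer than all cluster 6 cells. Marco, a scavenger receptor for bacteria and polyanions (ENSMUSG00000026390, chromosome 1, 120474540 to 120505020, minus strand), had reads in 7 of 15 cluster 6 cells and in 0 of 70 cluster 5 cells, which allows a share of up to 4.29% (3 cells of 70). That limit is for cells with a read, not for cells that express the gene. The 3 G2VInt cells had 0, 58.01 and 568 CPM, and the highest G2VLo cells 153.04 and 157.9. The sum was 146.8 CPM (140.2 to 153.6), at least 2216-fold above cluster 5 with 3 reads over all 70 cells put in place of 0, and 31.3 CPM or at least 473-fold without cell RBG8234. Spic, an ETS transcription factor that red pulp macrophages of the spleen need (ENSMUSG00000004359, chromosome 10, 88674772 to 88685015, minus strand), had reads in 6 cluster 6 cells, from 48.99 to 381.3 CPM, and in 1 cluster 5 cell (134.5 CPM). Its summed levels were 48.6 CPM (44.9 to 52.6) and 0.751 CPM (0.520 to 1.05), a 64.8-fold difference. Without that cluster 5 cell, RBG19892, it was at least 730-fold.

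Taken over the 4 genes, 3 cluster 6 cells had reads of all of them, 7 cells of 3 and 5 cells of 2. In cluster 5, 18 cells had reads of 2, 35 of 1 and 17 of 0, and none had 3 or more (0 cells). Only cells with 2 markers occurred in both clusters, 5 in cluster 6 and 18 in cluster 5. These genes name cluster 6 and the clusters were made from the same values, so this only describes the clusters. In the endothelial and hematopoietic classes of both gates, summed Timd4 was at most 0.186 CPM, and in all classes outside U1 Fcna was at most 2.93 CPM. Class U2 is covered by the value of Fcna but not by that of Timd4.

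Some cluster 5 cells reached cluster 6 levels of single genes. Of the 70, 14 had at least as much Timd4 as the lowest cluster 6 cell (36.4 CPM), and 7 had at least as much Fcna (509.7 CPM). The 5 cells with both, all G2VLo, were chosen after their values were seen. Their Timd4 ranged from 45.0 to 209.8 CPM and their Fcna from 553 to 2123, but their Hmox1 ranged only from 0 to 338.1 CPM, against 485 or more in 13 of the 15 cluster 6 cells. Cell RBG19347 of cluster 5 showed the converse: 15553 CPM of Hmox1, 423.1 of Nr1h3, 199.2 of Timd4, 209.4 of Dmpk and 0 of Olfml3, with 1.45 CPM of Fcna and 1291 of Tnf.

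**Figure D1:**
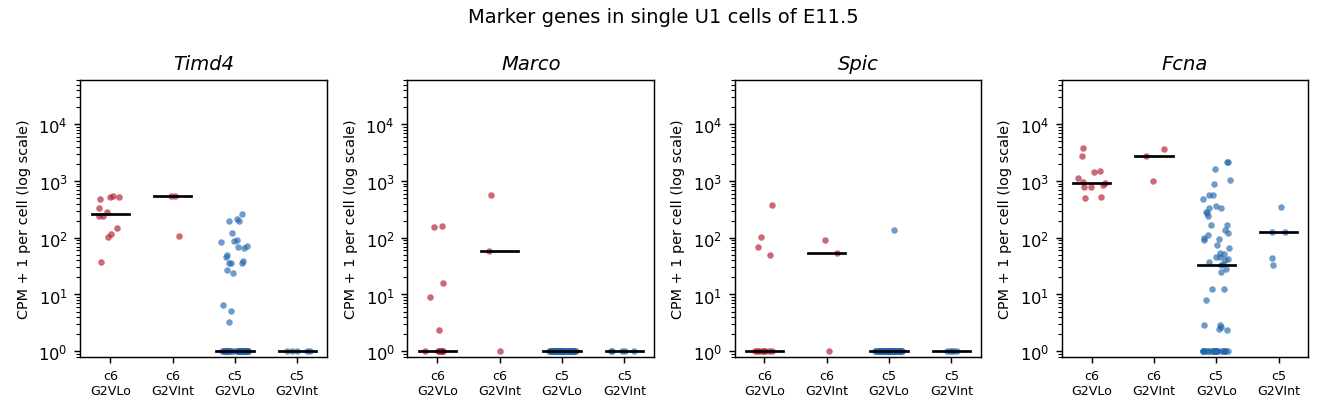
CPM + 1 (log scale) of the 4 marker genes in each of the 85 cells, by cluster (c6, c5) and Venus gate; each point is 1 cell and each bar the median. Timd4 and Fcna were read in all 15 cluster 6 cells, Marco in 7 and Spic in 6, against 22, 48, 0 and 1 of the 70 cluster 5 cells.

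Of 19 measured genes of the iron and heme list, 5 were at least 2-fold higher in cluster 6 and 1 was at least 2-fold lower, against 9.72% and 9.56% of all measured genes. Hmox1 had the largest ratio among them. Hmox1 encodes heme oxygenase 1, which opens the heme ring and frees its iron. Its level was 15212 CPM in cluster 6 and 1103 in cluster 5, a 13.8-fold difference, or 8.52-fold without the G2VInt cell RBG8255. In G2VLo the cluster 6 cells ranged from 2.94 to 16149 CPM (median 4483) and the cluster 5 cells from 0 to 15553 (median 409.3). In G2VInt the 3 cluster 6 cells had 10949, 14049 and 32501 CPM, all above the 5 cluster 5 cells (186.9 to 974). The spread in G2VLo was wide, and all cluster 6 cells there but RBG19520 (16149 CPM) lay within the range of cluster 5. Cells RBG19615, RBG19370 and RBG19570 of cluster 6 had the least, with 2.94, 59.3 and 485 CPM. Each of them had reads of Timd4 and at least 771 CPM of Fcna.

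Several other genes of the same route had smaller ratios. Slc48a1, which carries heme out of the phagolysosome, had 649 and 208.3 CPM (3.12-fold). Blvrb, a biliverdin reductase, had 458.3 and 207.9 (2.20-fold). Slc40a1, the iron exporter ferroportin, had 2538 and 811 CPM (3.13-fold). Every cluster 6 cell had at least 883 CPM of Slc40a1, whereas cluster 5 ranged from 0 to 3180 with a median of 398.4. The ferritin chains Ftl1 (1274 and 670 CPM) and Fth1 (7176 and 5315) differed by less than 2-fold. Steap3, a ferrireductase, had 35.1 and 11.4 CPM, but only a 1.21-fold difference without cell RBG8234. The lower gene was Slc11a2, an importer of ferrous iron, with 22.4 and 46.6 CPM (log2 ratio -1.05). It was at -0.71 without cell RBG8234 and -0.68 without cell RBG8255, and its ratio was -1.37 in G2VLo and 1.12 in G2VInt. Ratios below 0 but within 2-fold were those of Ncoa4 (-0.73), Tfrc (-0.58), Pcbp2 (-0.44), Hfe (-0.44) and Abcg2 (-0.22). The median log2 ratio of the list was 0.80, against 0.08 for all genes. In G2VLo 7 of 19 were higher and 1 lower, against 7.21% and 11.2% of all genes there. In G2VInt 4 of 19 were higher and 0 lower, against 24.2% and 20.1%, a share of higher genes no larger than that of all genes.

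Among the 15 genes named for the highest ratios, which had to be read in at least 50% of the thinned cluster 6 cells, the embryonic globins Hba-x and Hbb-y had the largest. Hba-x and Hbb-y encode globins that primitive red cells of the yolk sac make. Hbb-y had 455.4 CPM in cluster 6 (443.7 to 467.2) and 1.21 in cluster 5 (0.915 to 1.58), and Hba-x had 236.97 and 0.287. Hbb-y had reads in 12 of 15 cluster 6 cells. Its G2VLo cells ranged from 0 to 1897 CPM (median 44.4), and the G2VInt cells had 24.3, 387.8 and 1223. In cluster 5, 15 of 70 cells had reads, none above 38.8 CPM. Hba-x had reads in the same number of cluster 6 cells (12), up to 1427 CPM, and in 6 cluster 5 cells, up to 9.36 CPM. Without cell RBG8255 the folds were 162.3 for Hbb-y and 370.4 for Hba-x, against 374.9 and 825 with it. Hbb-bh1, a further embryonic globin, had 101.6 CPM in cluster 6 and 0.0442 in cluster 5 (2 reads, interval 0.00535 to 0.160). Hbb-bt, an adult globin with a near-identical neighbour that may share its reads, had 11.0 and 0.177 CPM (from 7 and 4 cells). The fold of Hbb-bh1 was 2300 (635 to 19012) and 1032 without cell RBG8255.

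The globin RNAs came with few other red cell transcripts. Alas2, the first enzyme of red cell heme synthesis, had 17.3 CPM in cluster 6 and 0.155 in cluster 5, from 4 and 3 cells, a 111.6-fold difference that was 31.05-fold without cell RBG8255. The erythroid transcription factors were near 0: Gata1 had 0.0781 CPM in cluster 6 (1 read) and 0.0883 in cluster 5 (4 reads), and Klf1 0.859 (11 reads) and 0.331 (15 reads). Of 20 genes of the erythroid list, 7 were measured and 5 were at least 2-fold higher, against 9.72% of all measured genes. All 5 were globins or Alas2, while the receptors Tfrc and Epor had log2 ratios of -0.58 and -0.72. Summed over the list, single cells reached from 54.7 to 3884 CPM in cluster 6 and from 0 to 421.2 in cluster 5. Other cells of the sort held globin RNA too. In G2VLo, Hbb-y had 12.0 CPM in class EC, 51.4 in HC1, 2.00 in HC2 and 631 in the 12 cells of class U2, against 1.29 in cluster 5 and 230.3 in cluster 6. In G2VInt it had 32.6 CPM in EC, 112.6 in HC1 and 1.65 in HC2, against 0.972 and 611. Whether the globin reads come from RNA made in these cells, taken up by them or carried over from other cells was not tested.

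Hmox1 and globin reads did not always occur in the same cells. Of the 3 cluster 6 cells with 0 reads of Hbb-y, cell RBG19362 had 15160 CPM of Hmox1, and cells RBG19370 and RBG19615 had 59.3 and 2.94. Cell RBG19835 had the most Hbb-y (1897 CPM) with 4961 CPM of Hmox1, close to the cluster median of 5219. In contrast, cell RBG8255 had the most Hmox1 of cluster 6 (32501 CPM) and 1223 CPM of Hbb-y, below only cell RBG19835. A link between the 2 genes was not tested.

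**Figure D2:**
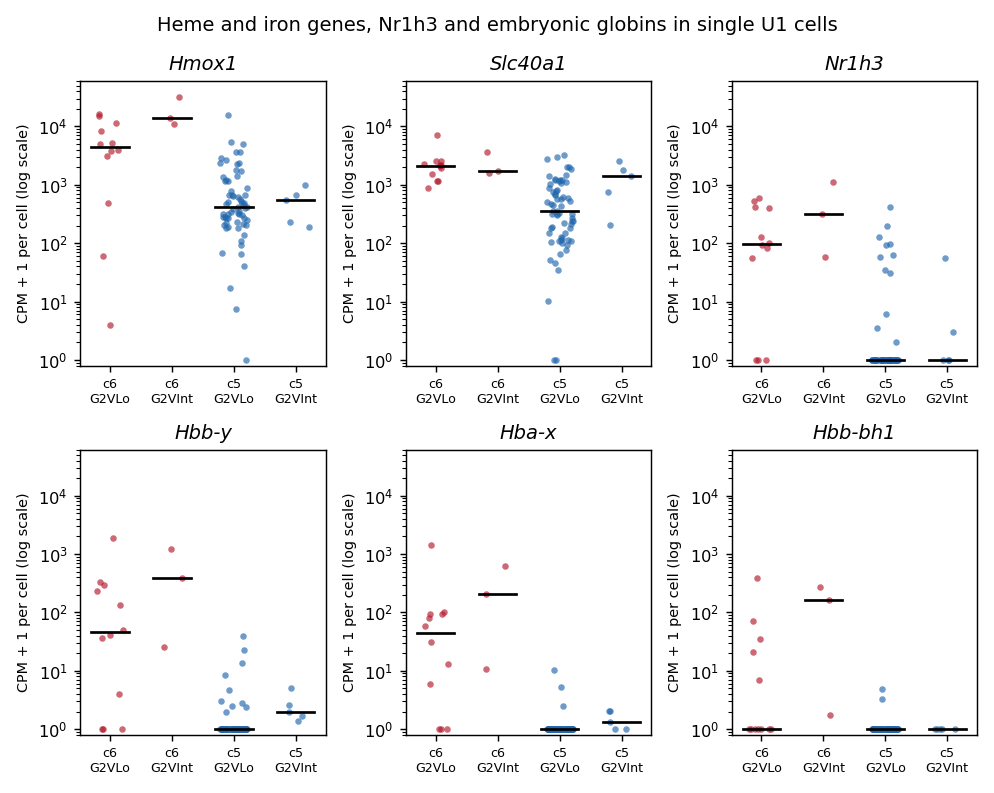
CPM + 1 (log scale) of Hmox1, Slc40a1, Nr1h3 and 3 embryonic globin genes in each cell, by cluster and gate; bars are medians. Slc40a1 is at 883 CPM or more in every cluster 6 cell, and Hbb-y exceeds 38.8 CPM in some cluster 6 cells but in no cluster 5 cell.

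Nr1h3 encodes LXR alpha, a nuclear receptor for oxidized cholesterol that macrophages of the liver and the splenic marginal zone need. It was read in 12 of 15 cluster 6 cells and in 14 of 70 cluster 5 cells. G2VLo cells of cluster 6 ranged from 0 to 589 CPM (median 97.5) and the G2VInt cells had 58.01, 319.4 and 1108. The cluster 5 medians were 0 in both gates, with a highest cell at 423.1 CPM. The summed levels were 313.9 and 17.7 CPM, a 17.8-fold difference, or 11.4-fold without cell RBG8246 and 27.5-fold without the cluster 5 cell RBG19347. Of 21 measured genes of lipid handling and LXR targets, 8 were at least 2-fold higher and 1 lower (median log2 ratio 0.36). The shares of all measured genes were 9.72% and 9.56%. The higher ones include Pltp, which transfers phospholipids (129.3 and 27.7 CPM), Lpl, the lipase of lipoproteins (2131 and 909), and Pparg, a lipid-sensing nuclear receptor (42.3 and 8.88). Pparg had 48, 49.3 and 79.5 CPM in the G2VInt cells of cluster 6 and 0 in the G2VInt cells of cluster 5, while in G2VLo its log2 ratio was 0.55. Apoc2 was lower (1.72 and 14.1 CPM, log2 ratio -3.03, or -3.90 without cell RBG8255), and Apoe, the major apolipoprotein of macrophages, had 10993 and 17504.

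Among the other highest named genes, 2 were read in all cluster 6 cells with little overlap to cluster 5. Lgals3, the lectin galectin-3, ranged from 128.1 to 1448 CPM in cluster 6 (summed 646) and from 0 to 278.4 in cluster 5 (summed 30.2). Crip1, a small LIM-domain protein, ranged from 53.1 to 597 CPM and from 0 to 211.1 (263.5 and 12.2), and was 14.1-fold higher without cell RBG8234. Dmpk, the kinase whose gene is altered in myotonic dystrophy, was read in 13 of 15 cluster 6 cells and 7 of 70 cluster 5 cells, with 256.5 and 4.37 CPM, a 58.7-fold difference that was 211.8-fold without the cluster 5 cell RBG19347. Adgre4, an adhesion receptor of the EGF-TM7 family, was read in 10 and 9 cells (77.9 and 4.88 CPM). The remaining ones, S100a6, Arap2, Cdc42ep2, Tnfaip2 and Gstp2, were 9.54-fold to 12.2-fold higher. S100a6 was 6.16-fold and Arap2 6.98-fold higher without cell RBG8255, and Tnfaip2 6.18-fold without cell RBG8246. Gstp2 has close copies next to it that may share its reads.

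The list of liver and spleen macrophage genes had 16 of its 23 members measured, of which 13 were at least 2-fold higher, 0 were lower and all 16 had positive ratios (median log2 ratio 2.36). In G2VLo 11 of 14 were higher and 1 lower (2.38), and in G2VInt 13 of 17 were higher and 2 lower (4.58). Of all measured genes 9.72% were higher over both gates, 7.21% within G2VLo and 24.2% within G2VInt. The shares of lower genes were 9.56%, 11.2% and 20.1%. The lower member in G2VLo was Id3, an inhibitor of helix-loop-helix factors (-2.54 there, 7.55 in G2VInt). Of those in G2VInt, Cd5l, a secreted scavenger-type protein of tissue macrophages, had -1.29 there and 2.40 in G2VLo. The list also holds Cdh5, an endothelial cadherin, whose ratio without cell RBG8234 is given with the endothelial genes. The list was written with the 4 markers in it, so this describes cells chosen by their clusters. Siglec1, the sialoadhesin of tissue macrophages, had 39.1 and 18.04 CPM (2.17-fold, 1.51-fold without cell RBG8255), and Folr2, a folate receptor, 246.3 and 95.4 (2.58-fold, 1.88-fold without cell RBG8246). Scavenger and complement genes moved in part. Msr1, a scavenger receptor, had 264.9 and 80.2 CPM. Cfp, the complement protein properdin, had 704 and 112.03, with at least 295.8 CPM in every cluster 6 cell. Stab2, a clearance receptor for hyaluronan, had 55.5 and 7.84 CPM from 7 and 19 cells (7.08-fold, 4.14-fold without cell RBG8234 and 43.6-fold without the cluster 5 cell RBG8328). Ccl6, a chemokine of resting macrophages, had 1657 and 194.4 CPM and ranged from 359.98 to 2705 CPM in cluster 6. Lyz2, lysozyme, had 3777 and 1016 (2.18-fold without cell RBG8255). Ifitm3, an interferon-induced membrane protein, had 289.9 and 34.1, and Pirb, an inhibitory receptor, 57.9 and 7.09.

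Genes known from microglia were lower in cluster 6. Of 18 measured members of the list of microglia and Cx3cr1 macrophage genes, 13 were at least 2-fold lower, 0 were higher, and 0 had a positive ratio (median log2 ratio -1.76). In G2VLo 12 of 18 were lower (-1.87), and in G2VInt 13 of 17 were lower and 1 higher (-1.54). Of all measured genes 9.56% were lower over both gates, 11.2% within G2VLo and 20.1% within G2VInt. Olfml3, a secreted glycoprotein, had 0 reads in all 15 cluster 6 cells and was read in 43 of 70 cluster 5 cells. Its level in cluster 5 was 145.2 CPM (141.7 to 148.8), with cells from 0 to 849, at least 620-fold above cluster 6. Siglech, a sialic acid-binding lectin, was read in 1 cluster 6 cell (cell RBG19615, 38.3 CPM) and in 35 cluster 5 cells, up to 635 CPM (1.02 and 69.3 CPM). Rgs1, a regulator of G protein signaling, had 4 reads in cluster 6, from 3 cells, and 169.5 CPM in cluster 5. Its reads came from G2VLo: in G2VInt cluster 5 it had 0.972 CPM.

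Other members of the list were lower but present in cluster 6. Cx3cr1, the fractalkine receptor, was read in all 85 cells. It ranged from 114.9 to 1405 CPM in the G2VLo cells of cluster 6 (median 708) and from 35.7 to 3174 in those of cluster 5 (median 1063), which overlap. In G2VInt the cluster 6 cells had 253.3, 275.2 and 324.8 CPM, and the cluster 5 cells 820 to 1857, which do not. Fcrls, an Fc receptor-like protein, had 340.7 and 1704 CPM, Tmem119 15.7 and 119.03, and Gpr34, a lysophosphatidylserine receptor, 12.2 and 127.5. Without cell RBG8234, Tmem119 was at 5.07 CPM. Without cell RBG8255 the log2 ratio of Fcrls went from -2.32 to -3.06 and that of Gpr34 from -3.39 to -4.73. Slc2a5, a fructose carrier, and Havcr2, the receptor TIM-3, had 0 reads in cluster 6 and were read in 25 and 19 cluster 5 cells (30.3 and 30.96 CPM). The microglia transcription factor Sall1 was hardly read in either cluster, with 0 of 15 and 2 of 70 cells (0 and 0.353 CPM).

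Chemokines and cytokines of macrophage activation were also lower, mainly in G2VLo. Of 18 measured, 9 were at least 2-fold lower and 2 higher (median log2 ratio -1.08), against 9.56% and 9.72% of all measured genes. Ccl4, a chemokine that draws immune cells, was read in 4 cluster 6 cells, none above 15.3 CPM, and in 55 cluster 5 cells. Its G2VLo cells in cluster 5 ranged from 0 to 8654 CPM (median 248.3). In G2VInt the cluster 5 cells reached 135.9 CPM with a median of 1.75. Tnf, the cytokine, was read in 4 cluster 6 cells, up to 57.3 CPM, and in 41 cluster 5 cells, up to 3601 (5.23 and 296.3 CPM). All reads of Tnf and Cxcl2 came from G2VLo, and both had 0 reads in the 8 G2VInt cells. Cxcl2, a neutrophil attractant, had 0 reads in cluster 6 and 235.8 CPM in cluster 5. Within G2VInt alone the median of this list was 0.62 over 15 genes, and Ccl2 had a log2 ratio of 2.35 there, on 24.7 and 4.86 CPM. Over both gates the log2 ratio of Ccl2 was -3.37, or -5.16 without cell RBG8255, and that of Ccl4 was -7.82, or -8.75 without it.

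Immediate-early and heat-shock genes, which respond fast to stress such as tissue dissociation, were as a list split by gate in a like manner. Of 19 measured, 5 were at least 2-fold lower and 1 higher, against 9.56% and 9.72% of all measured genes. The median log2 ratio of the list was -0.78, which was -1.04 in G2VLo and 0.19 in G2VInt. Atf3 had 117.9 and 678 CPM, and Fos 749 and 1475, and these 2 genes were lower in both gates. Their log2 ratios were -2.42 in G2VLo and -1.47 in G2VInt for Atf3, and -0.73 and -1.03 for Fos. The heat-shock genes Hspa1b (0.86 and 2.15) and Hsph1 (0.92 and 0.80) had positive ratios in both gates. Hspa1a (0.14 and -2.07) and Dnajb1 (0.25 and -0.50) had them only in G2VLo. The part of dissociation or handling in these values was not tested.

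**Figure D3:**
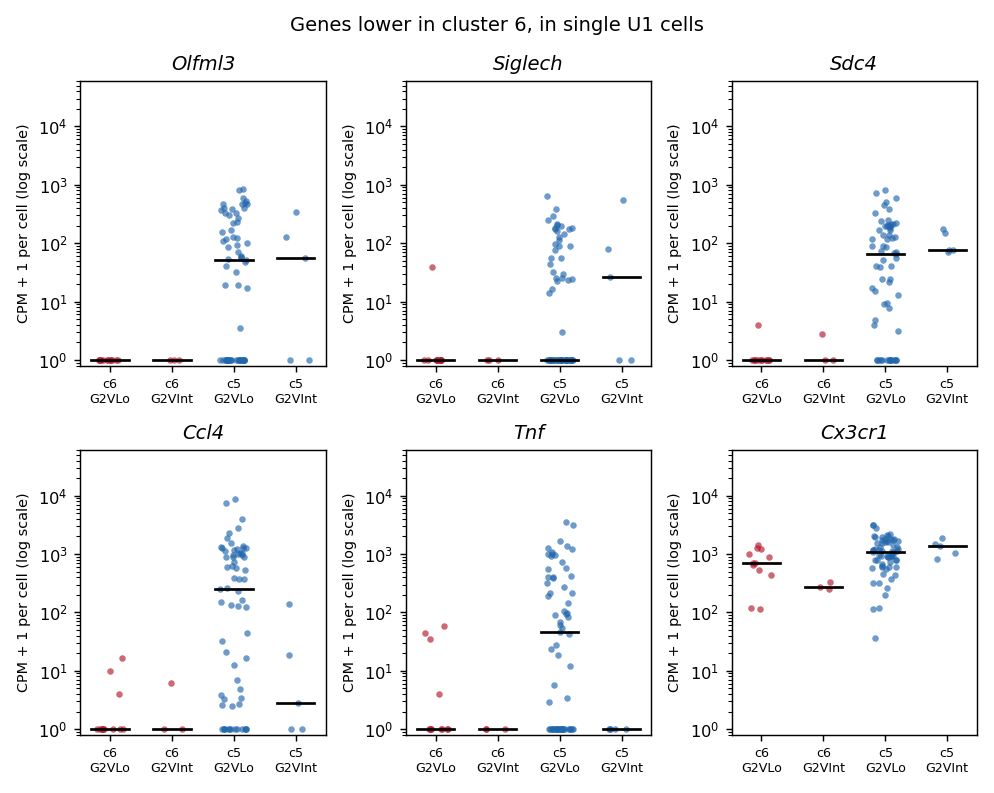
CPM + 1 (log scale) of 6 genes that were lower in cluster 6, in each cell by cluster and gate; bars are medians. Olfml3 is at 0 in all 15 cluster 6 cells, Cx3cr1 is present in all 85 cells, and Tnf is at 0 in all 8 G2VInt cells.

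The lowest named genes also held genes outside the lists used here, with Ccl12 of the chemokine list and Ms4a7 of the fetal perivascular macrophage list. Sdc4, the heparan sulfate carrier syndecan 4, had 6 reads in cluster 6, from 2 cells, and 124.5 CPM in cluster 5 (121.3 to 127.8), with reads in 55 of 70 cells. All 5 G2VInt cells of cluster 5 had from 69.7 to 176.6 CPM of it, so the clusters did not overlap in that gate. Clec12a, an inhibitory lectin of myeloid cells, had 0.390 and 56.97 CPM. Ms4a7, a membrane protein of macrophages, had 17.96 and 255.6 CPM, and in G2VInt at most 10.7 CPM in cluster 6 and at least 30.0 in cluster 5. Ccl12 had 2.42 and 55.1 CPM, and Gpr183, an oxysterol receptor, 2.73 and 53.5. Rasal3, Nes, Irf2bpl, Retreg1, Ptpn7, Abhd6 and Plxdc2 were from 13.3-fold (Plxdc2) to 75.2-fold (Rasal3) lower. Several of these low levels come in large part from 1 cell: Retreg1 had 1.41 CPM in cluster 6, and its log2 ratio of -4.49 was -8.62 without cell RBG19869, and that of Ptpn7 was -3.88 and -6.85 without cell RBG8234. Likewise the log2 ratio of Sdc4 was -8.05 and -10.29 without cell RBG8234, that of Irf2bpl -4.62 and -5.94 and of Nes -4.79 and -5.44 without cell RBG19869, and that of Rasal3 -6.23 and -7.39 without cell RBG19451. Clec12a (-7.19) and Gpr183 (-4.29) were at -9.48 and -5.80 without cell RBG19570, and Ccl12 (-4.51) at -5.83 without cell RBG19362. Abhd6 (-3.82) was at -4.81 without cell RBG8246 and Plxdc2 (-3.73) at -4.51 without cell RBG19835. Each cell left out held a large part of the gene's cluster 6 reads, so leaving it out could only make the difference larger. The reads left in cluster 6 were then 4 for Ptpn7, 1 each for Retreg1, Sdc4 and Clec12a, and 0 for Rasal3, whose value without the cell is a bound from the floor of 3 reads.

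The general macrophage genes were read in both clusters. Of 22 measured genes of the pan-macrophage list, 1 was at least 2-fold higher in cluster 6, 4 were at least 2-fold lower and 17 lay between (median log2 ratio -0.34). Of all measured genes, 9.72% were higher and 9.56% lower, so the share of this list within 2-fold was no larger. Csf1r, on whose signal macrophages depend, was read in all 85 cells, from 1206 to 5373 CPM in cluster 6 and from 667 to 7999 in cluster 5. C1qb, a chain of the complement protein C1q, had 5341 and 5005 CPM, and Spi1, which encodes the macrophage factor PU.1, 498 and 544. Mertk, a receptor for dying cells, had 148.3 and 109.3. Mrc1, the mannose receptor, had 656 and 1219 CPM. The 4 lower ones were Adgre1, which encodes F4/80 (277.8 and 691 CPM), Cd33, Csf3r and Cd14, of which Cd14 had a log2 ratio of -1.38, or -0.82 without the cluster 5 cell RBG19478. Lysosomal genes differed little: 36 of 38 measured lay within 2-fold (median log2 ratio -0.11), among them Ctsb (9674 and 9032 CPM) and Ctsd (6162 and 5857). Acp5, the tartrate-resistant acid phosphatase, was the 1 that was higher (106.5 and 29.99 CPM, 2.24-fold without cell RBG8234).

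Transcription factors of macrophages were split. Of 32 measured, 7 were at least 2-fold higher and 4 lower (median log2 ratio 0.15). Beside this list and each further list of this paragraph stand 9.72% higher and 9.56% lower of all measured genes. The higher transcription factors include Spic, Nr1h3 and Pparg, described above. Bhlhe41 was the lowest (2.03 and 17.2 CPM, a log2 ratio of -3.08 that was -4.56 without cell RBG8255), followed by Mef2c (log2 ratio -2.17). Receptors for chemokines and cytokines had 7 of 21 at least 2-fold lower and 0 higher (median -0.53), led by Ccr1 with 16.1 and 176.9 CPM (log2 ratio -3.46, or -4.16 without cell RBG19370). Antigen presentation had 3 of 11 lower and 1 higher, among them Cd74, the invariant chain of MHC class II, at 0.703 and 19.7 CPM, with all cluster 6 reads in cell RBG19870. Lists of engulfment (3 higher and 2 lower of 21), complement (2 and 1 of 11), Fc receptors (2 and 1 of 11), pattern recognition (1 and 3 of 17), erythroblast islands (1 and 1 of 11) and fetal perivascular macrophages (2 and 2 of 15) had medians between -0.33 and 0.24, and their counts stand against 9.72% higher and 9.56% lower of all measured genes. Stab1, a scavenger receptor of the last of these lists, had 910 and 2153 CPM.

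**Figure D4:**
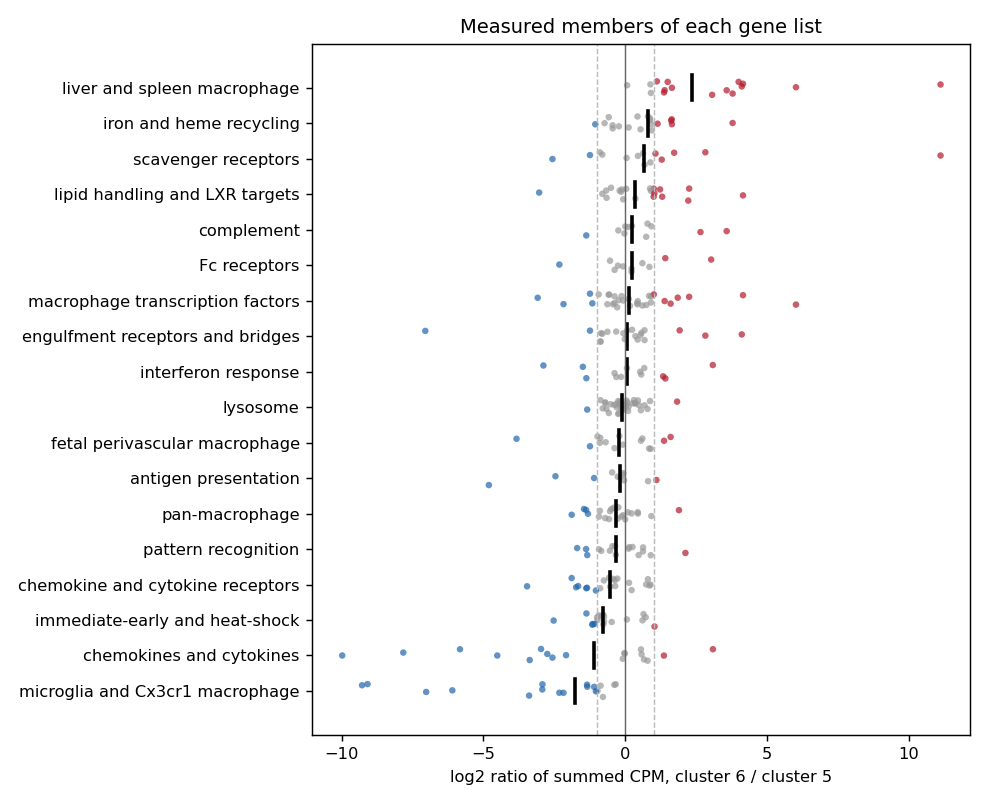
Log2 ratio of summed CPM, cluster 6 over cluster 5, for each measured member (points) of 18 gene lists, with the list median (bar) and dashed lines at 2-fold. The liver and spleen macrophage list lies highest (median 2.36) and the microglia and Cx3cr1 macrophage list lowest (-1.76); ratios of genes with 0 reads in 1 cluster are bounds.

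Values of interferon response and cell cycle genes are given by gate, and no difference between the gates was tested. The interferon list had 3 genes higher and 3 lower of 13, with medians of 0.87 in G2VLo and -1.55 in G2VInt. Of 41 S phase genes, 5 were at least 2-fold higher over both gates (median 0.40), 24 of 41 within G2VInt (1.17) and 0 of 40 within G2VLo (-0.17). Higher among all measured genes were 9.72% over both gates, 24.2% within G2VInt and 7.21% within G2VLo. Of 51 G2 and M phase genes, 9 were at least 2-fold lower over both gates (-0.53), or 4 of 51 without cell RBG8234 (-0.30). Within G2VLo 0 of 51 were higher or lower (-0.20), and within G2VInt 3 of 50 were higher and 18 lower (-0.27). Lower among all measured genes were 9.56% over both gates, 13.2% without cell RBG8234, 11.2% within G2VLo and 20.1% within G2VInt. Both clusters thus held cells with reads of both phases, and no share of cycling cells was computed.

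The gates differed in how many genes passed 2-fold. Within G2VLo, 647 of 8979 measured genes (7.21%) were at least 2-fold higher and 1003 (11.2%) lower. Within G2VInt, where 3 cells stand against 5, 2293 of 9458 (24.2%) were higher and 1898 (20.1%) lower. Over the genes measured in both gates, the genes higher in both were 47.2% of the 530 higher ones in G2VLo and 13.9% of the 1796 in G2VInt. The genes lower in both were 36.9% of the 879 lower ones in G2VLo and 20.5% of the 1578 in G2VInt. Genes that passed 2-fold in opposite directions were 19.2% of the higher and 21.8% of the lower ones in G2VLo. The 15 highest and 15 lowest genes named here were chosen in part by their ratio in G2VLo, so their direction in that gate was fixed by the choice. In G2VInt, which was no separate part of that choice but is part of the sums, the 15 highest were at least 13.6-fold higher. Over all measured genes the median was 0.01 in G2VLo and 0.11 in G2VInt.

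**Figure D5:**
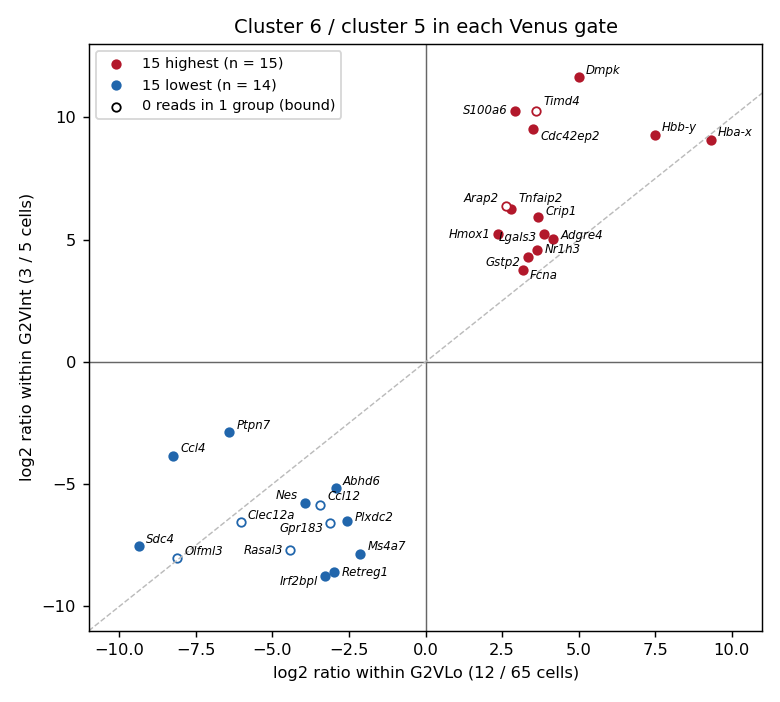
Log2 ratio of cluster 6 to cluster 5 within G2VLo (x axis, 12 and 65 cells) and within G2VInt (y axis, 3 and 5 cells) for the 15 highest and 14 of the 15 lowest named genes; Tnf is left out because it had 0 reads in G2VInt. All lie in the quadrants where both gates have the same sign, and open points are bounds because 1 group had 0 reads.

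Endothelial markers were highest in 1 cell of each cluster. Of 11 measured endothelial genes, 9 were at least 2-fold higher in cluster 6 (median log2 ratio 1.58), against 9.72% of all measured genes. Without cell RBG8234 only 6 were measured, of which 1 was higher and 4 were lower (-1.41), against 9.28% and 13.2% of all genes. Within G2VLo the median was -1.29. Summed over the 22 genes of the list, cell RBG8234 had 2402 CPM, and the other cluster 6 cells had 21.1 to 425.2. Cluster 5 cells had 15.3 to 6960, the highest being G2VLo cell RBG19904, and reads of all 22 genes were found in both clusters. Cell RBG19904 was kept in the list medians above. The median G2VLo cell had 94.8 CPM over the list in cluster 6 and 112.3 in cluster 5. Cell RBG8234 also had 667 CPM of Cd34, a marker of stem cells and endothelium, and 2193 CPM over the stem and progenitor list, against 55.1 to 406.2 in the other cluster 6 cells and 15.2 to 1009 in cluster 5. The same cell had 552 CPM of Timd4, 568 of Marco, 89.3 of Spic, 2804 of Fcna and 14049 of Hmox1, and 0 reads of Ccl3, Ccl4 and Tnf. Whether it is a single cell or a pair was not tested.

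Without cell RBG8234 several ratios changed. Egfl7, an endothelial secreted protein, went from 10.5-fold higher (157.6 and 15.02 CPM) to a log2 ratio of -1.81, and Fn1, fibronectin, from 7.01-fold higher (123.6 and 17.6 CPM) to -2.89. Those of Esam and Acta2 went from 3.28 and 3.67 to -1.38 and -0.26. Cd34 was 9.48-fold higher with the cell and 1.29-fold without it, Vwf 9.74-fold and 1.08-fold, and Cdh5 8.36-fold and 2.37-fold. The numbers of genes at least 2-fold higher and lower became 832 and 1186. The liver and spleen macrophage list kept a median of 1.79 and the microglia list one of -1.93.

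Lists of further cell types had few measured members. Of 20 monocyte and granulocyte genes, 2 were measured. Itgal, an integrin chain of leukocytes, had 324.8 and 79.7 CPM with reads in all 15 cluster 6 cells, and the other is Fn1, above. Of the mast and megakaryocyte (16 genes), lymphoid (15), mesenchymal (12) and hepatic and epithelial (13) lists, 3, 1, 1 and 1 were measured. The hepatic gene is Trf (99.3 and 51.9 CPM). Albumin, Alb, had 0 reads in all 85 cells, and Afp, alpha-fetoprotein, had reads in 2 cluster 6 and 5 cluster 5 cells (3.44 and 0.950 CPM). Summed over the hepatic and epithelial list the levels were 107.4 and 54.8 CPM.

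The authors' second clustering, of all cells with the CD27+ ones, kept most assignments. Cell RBG19370 of cluster 6 was placed in cluster 5 there, and cell RBG19904 of cluster 5 in cluster 4, which leaves 14 of 84 (16.7%) in cluster 6. Cell RBG19370 had 239.2 CPM of Timd4 and 3798 of Fcna, the most of any cluster 6 cell, but 0 reads of Nr1h3, Hbb-y and Hba-x and 59.3 CPM of Hmox1. With this clustering 907 genes were at least 2-fold higher and 939 lower.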

How the data were processed

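Libraries of the sorted single cells were prepared with the Nextera XT kit and sequenced by Illumina Hi-Seq, per the labels' protocols. The values are read counts per gene and cell as deposited by the authors (46078 Ensembl genes), made with HTSeq 0.6.0 and the build GRCm38, per the submitters' processing notes. The aligner, the annotation release and whether counting used strand are not given in the sources used here, so reads of overlapping genes on opposite strands cannot be told apart. The protocol has no molecular identifiers, so counts include PCR copies and intervals cover counting error only. Clusters and classes are those the authors gave in the labels. Cells were not filtered and no doublet caller was run.

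Gene names and coordinates came from the GENCODE M21 annotation of GRCm38: 45143 of 46078 IDs matched, and the unmatched ones held 0.0677% of the reads of these cells. Counts were summed per cluster and scaled to CPM, with exact Poisson intervals. Shares have exact Clopper-Pearson intervals, and a share of 0 has an upper limit of 3 counts of the total. For the share of cells with a read, each cell was thinned to 100000 reads. A ratio against a cluster with 0 reads uses 3 reads over that cluster and is a lower bound. Python 3.11.15 with numpy 2.4.6, pandas 2.3.3 and scipy 1.17.1 was used, and edgeR 4.0.16 in R 4.3.3 for TMM factors only. The calculations were tested on simulated data. With 1 sample per gate and clusters made from the same values, no test was run. Totals per cell ranged from 152492 to 3223457 reads.

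One gene that the rule below names is not reported here. Named were the 4 markers, the genes of the sorted proteins and the reporter gene, the 15 highest and 15 lowest ratios among genes read in at least 50% of thinned cells of the higher cluster, at least 2-fold apart and at least 1.5-fold apart by mean CPM per cell, in G2VLo alone and with any 1 cell left out, and up to 4 members with the largest ratios of each of 31 lists (2 of the cell cycle and other cell type lists). A few further genes were named after their values were seen: Csf1r, Mrc1, Cx3cr1, C1qb, Spi1, Mertk, Tmem119, Gpr34, Ccl6, Ccl3, Ccl2, Fth1, Ftl1, Blvrb, Hbb-bt, Apoe, Lpl, Ctsd, Ctsb, Fos, Cdh5, Gata1, Klf1, Slc11a2, Id3, Cd5l, Ncoa4, Pcbp2, Hfe, Abcg2, Mef2c, Tfrc, Epor, Sall1, Xist, Afp, Alb, Hspa1a, Hspa1b, Hsph1 and Dnajb1. The cells, the members and the lists were chosen with earlier results of these data known. Alternatives were other scaling (TMM, median of ratios), the mean of CPM per cell, thinned counts, each gate alone, the clustering of all cells, other filters, lower and upper library numbers and each cell left out. Leaving out the cell with most Kit was added after seeing the data. Promoter windows are RefSeq sequence of GRCm38.p6.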

Additional observations from a re-analysis of the deposited data

Results flagged for a closer look

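Of the named genes measured in both gates, 11 were at least 2-fold apart in both with opposite directions, and the difference between the gates was not tested. Among all genes measured in both gates, 19.2% of the higher and 21.8% of the lower ones in G2VLo were opposite in G2VInt. Ccl2, Slc11a2, Id3 and Cd5l were named after their values were seen, so the count depends on that choice. Nr4a1, Ier3, Ung and Ccne2 also had opposite signs, but within 2-fold in 1 of the gates. In G2VInt the log2 ratio was 2.11 for Cd14, 1.38 for Cd83, 3.94 for Nlrp3, 2.36 for Junb, 2.35 for Ccl2, 1.12 for Slc11a2 and 7.55 for Id3, all of them negative in G2VLo. Cd14 is a co-receptor for bacterial lipopolysaccharide, Nlrp3 an inflammasome sensor, and Junb an immediate-early factor. Cd5l was the converse, with -1.29 in G2VInt and 2.40 in G2VLo. The 3 others were 5.78 for Fn1, 4.19 for Egfl7 and 6.00 for Cd34 in G2VInt, also negative in G2VLo. Cell RBG8234 held most cluster 6 reads of these 3 genes.

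A signal of the cluster 6 markers appears among the CD27+ cells, which the comparison does not use. In the clustering of all cells, 1 of them was placed in cluster 6. It had 433.4 CPM of Timd4, 1850 of Marco, 3718 of Fcna and 696 of Lgals3, with 146.5 of Hmox1 and 0 of Spic. Its Kit level was 2.99 CPM. The 3 CD27+ cells placed in cluster 5 had 1.78 CPM of Timd4, 135.6 of Fcna and 0 of Marco over their summed reads.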

How the results depend on the processing

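No paired analysis was possible because each gate is 1 sample, and the numbers of the cells only name them. The share of measured genes at least 2-fold higher (9.72%) was 24.2% in G2VInt alone, 15.02% with a limit of 1 CPM (2055 of 13679 genes) and 8.22% with 50 CPM (of 4368 genes), and 9.28% to 10.2% with 1 cell left out. That of lower genes (9.56%) was 20.1% in G2VInt alone, 17.6% with 1 CPM (2412 genes), 5.65% with 50 CPM, 19.1% and 14.6% with the lower and the upper library numbers of G2VLo, and 9.16% to 13.2% with 1 cell left out. Other scaling, mean CPM, thinned counts and the clustering of all cells kept both within 1.5 times. The share of cluster 6 was 37.5% in G2VInt.

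Of the list medians under an alternative, 41 moved by 0.5 or more and 11 others were counted as changed in sign. Each is the median of the list minus that of all genes. A change of sign was counted only for lists at least 0.5 from 0 over both gates. Smaller medians that changed sign are not among the 11, such as that of S phase (0.40, and -0.17 in G2VLo, before subtraction). Of the log2 ratios of single genes, 1410 kept their side of 2-fold, 130 crossed it and 54 were counted as changed in sign. Those 54 cover only genes at least 2-fold apart over both gates. Smaller ratios that changed sign are not among them, such as Id3 (0.91, and -2.54 in G2VLo) and Cd5l (0.89, and -1.29 in G2VInt). In G2VInt alone the list median was 0.51 for chemokines and 0.076 for immediate-early genes, and the log2 ratio 2.11 for Cd14, 1.38 for Cd83, 3.94 for Nlrp3, 0.19 for Nr4a1, 0.82 for Ier3, 2.36 for Junb, 2.35 for Ccl2 and 1.12 for Slc11a2. In G2VLo alone the median was -1.30 for endothelial and -1.15 for stem genes, and the ratio -0.58 for Gata2, -0.72 for Cd27, -4.02 for Fn1, -0.61 for Ung, -0.95 for Ccne2, -1.79 for Egfl7, -0.79 for Esam, -1.90 for Cd34, -3.97 for Vwf and -0.075 for Acta2. With its lower library numbers these were -0.96 and -0.66, and -1.09 for Kit, -1.33 for Cd27, -2.01 for Cd300lb, -2.65 for Fn1, 0.16 for Irf9, -0.23 for Ung, -1.17 for Ccne2, -2.86 for Egfl7, -2.12 for Cd34, -0.27 for Vwf and -2.30 for Acta2. With the upper ones the median was 0.43 for G2 and M phase, -2.17 for endothelial and -1.51 for stem genes, and the ratio -0.99 for Pparg, -0.58 for Pltp, -5.32 for Fn1, -1.35 for Ung, -0.59 for Ccne2, 0.28 for Dlgap5, 0.34 for Ndc80, -1.09 for Egfl7, -2.15 for Esam, -1.78 for Cd34, -3.79 for Vwf and -3.73 for Cdh5. Ccne2 was at -0.19 in thinned counts. Without the cell with most Kit, RBG8234, the medians were -1.39 and -0.66 for endothelial and stem genes, and the ratio -0.89 for Cd27, -2.89 for Fn1, -1.81 for Egfl7, -1.38 for Esam and -0.26 for Acta2. With 1 cell left out, the lowest and highest ratios were -0.89 and 4.64 for Cd27, -2.89 and 3.78 for Fn1, -0.037 and 1.73 for Ccne2, -1.81 and 3.80 for Egfl7, -1.38 and 4.21 for Esam, -0.26 and 4.38 for Acta2 and -0.46 and 2.09 for Klf1. Fewer cells stand behind each subset, and the cause of these changes was not tested.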
